A study of Homo sapiens with 18 samples.

Results

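The expression of all genes was compared between 2 XIST knockdown lines of the human ovarian cancer cell line OVCAR3 after both had been kept in low oxygen. The comparison used the 6 libraries of sgXIST7 and sgXIST9 in hypoxia, out of 18 libraries in the series, with 3 libraries for each line. All lines carried OVCAR3-KRAB, that is OVCAR3 with a lentivirally integrated dCas9-KRAB fusion, and a second lentivirus with a guide RNA. The guides sgXIST7 and sgXIST9 were designed against the XIST promoter, and the control guide sgCtl against Gal4, a yeast sequence. Hypoxia was 1% oxygen for 24 h, and normoxia was the usual culture of the same lines. Total RNA depleted of ribosomal RNA was sequenced with strand information. The paper describes monoclonal lines from limiting dilution, but does not say how many clones per guide were sequenced. Each line is called a clone below, and the effect of a guide cannot be told apart from the history of its clone. The paper names 3 biological replicates for the RNA sequencing, but the labels do not say whether the 3 libraries of a line came from separate cultures. The p-values thus measure the spread between these libraries, which may be in part technical.

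XIST is the long noncoding RNA that coats the inactive X chromosome in female cells and starts its silencing. In CRISPR interference, a catalytically dead Cas9 carries the KRAB repressor domain to the site that the guide RNA matches, and heterochromatin is set up there. Cells in low oxygen stabilise the HIF transcription factors, which raise genes of glycolysis, angiogenesis and matrix remodelling. In women, genes that escape inactivation are expressed from both X chromosomes.

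The sites of both guides are shown because they are the designed difference between the lines. The last 20 bases of each spacer had 1 perfect match beside an NGG motif in the hg38 genome, and both matches lay at the 5′ end of XIST, which spans chrX:73820651-73852753 on the minus strand. The middle of the sgXIST7 site lay 12 bases, and that of the sgXIST9 site 47 bases, downstream of the annotated start, in the first exon of this noncoding gene. The sgXIST7 site was chrX:73852732-73852754 on the plus strand and the sgXIST9 site chrX:73852694-73852716 on the minus strand. The bases below are those of hg38, 5′ to 3′, with the protospacer adjacent motif in capitals.
sgXIST7: gcagcgctttaagaactgaaGGG
sgXIST9: ccatatttcttactctctcgGGG
No site with 1 or 2 differences was found for either guide, and 2 sites for sgXIST7 and 14 for sgXIST9 had 3 differences. Of the genes that start within 10 kb of such sites, COPS5, a subunit of the COP9 signalosome, had a log2 fold change of -0.09 between the clones (edgeR adjusted p = 0.65). CSPP1, a ciliary and spindle protein, had one of -0.25 (edgeR adjusted p = 0.3), and the microRNA gene MIR4743 had too few counts to be tested.

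Levels are given as CPM, the counts of a gene per 1e6 counts of the library after TMM scaling. Total counts of the 6 libraries ranged from 13483871 to 24906936, and 14938 of 28277 listed genes had enough counts to be tested. Replicate 3 had the lowest total in both clones and stood farthest from the other libraries of its clone, with root mean square log2 differences of 0.512 to 0.702 against 0.409 and 0.446 between replicates 1 and 2. Many results are therefore also given without it, but not all of those that changed. The labelled ovarian epithelial origin was checked on 8 Mullerian epithelial markers. KRT8, KRT18 and EPCAM had from 325 to 5542 counts per library and PAX8 had 34 to 131. WT1 had only 1 to 9, ESR1 0 to 14, MUC16 0 to 4 and CDH1 at most 1, so the set was only in part clearly expressed. The summed level of the 8, most of it from KRT18 and EPCAM, was 459 to 517 CPM in sgXIST7 and 411 to 434 in sgXIST9. The leukocyte markers PTPRC, CD3E and CD14, and of 4 endothelial markers PECAM1, CDH5 and KDR, were at or under 3 counts in each library. CD68, a lysosomal protein abundant in macrophages, had 222 to 577 counts per library, and VWF had 2 to 13.

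XIST was almost lost in sgXIST7 and was reduced but present in sgXIST9. The 3 sgXIST7 libraries held 0, 2 and 3 XIST counts, the sgXIST9 libraries 357, 472 and 510, and the sgCtl libraries in hypoxia 1974, 5014 and 1589. All sgXIST9 libraries were above all sgXIST7 libraries and below all sgCtl libraries. With sgXIST7 set at the level of 3 counts per library, XIST was at least 129.9-fold lower in sgXIST7 than in sgXIST9 (edgeR adjusted p = 3.6e-06, log2 fold change -7.87 ± 0.81, SE). The exact two-sided permutation test of 3 against 3 libraries gave p = 0.1, the smallest it allows. In sgXIST9, XIST stood at 13.6% of the mean sgCtl level in hypoxia.

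The clones differed at many genes. With edgeR's quasi-likelihood test at an adjusted p under 0.01 and a log2 fold change beyond 1 in size, 308 genes were higher and 358 lower in sgXIST7 than in sgXIST9, which is 2.06% and 2.40% of the genes tested and 4.46% in all. In 651 of these 666 genes the 3 libraries of one clone were all above the 3 of the other, as they were in 29.7% of all genes tested. Without the 2 libraries of replicate 3, 299 genes were higher and 297 lower, and 238 of the 308 and 264 of the 358 were called again. When the 6 libraries were fitted alone, 167 genes were higher and 156 lower.

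Many of the lower genes lay together on chromosome 7. From RBM28 to the end of the long arm (chr7:128297685-158946192, hg38), 149 of 159 genes tested had a negative log2 fold change, with a median of -1.08, a 2.11-fold lower level in sgXIST7. In this stretch 74 genes were called lower and 1 higher, or 47.2% of its genes, and it held 20.7% of all genes called lower. Without the fold limit, 96 of its genes had a negative sign and an adjusted p under 0.01 in edgeR's quasi-likelihood test. The boundary was placed after the values were seen, and no test was made of it.

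The step at this boundary was narrow. The last genes before it were SND1, a transcription coactivator, with a log2 fold change of 0.22, and its intronic transcript SND1-IT1 with 0.30, neither of which passed the test. The first gene after it, RBM28, a nucleolar protein, was at 29.1, 27.4 and 25.3 CPM in sgXIST7 and 67.2, 61.9 and 59.8 CPM in sgXIST9 (log2 fold change -1.20 ± 0.11, SE, edgeR adjusted p = 4.3e-07). The 19 genes tested from MET to SND1-IT1 had a median of 0.07, and the 562 genes of chromosome 7 before RBM28 a median of -0.04. Outside the stretch, 307 genes were higher and 284 lower over the genome, or 4% of 14779.

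**Figure D1:**
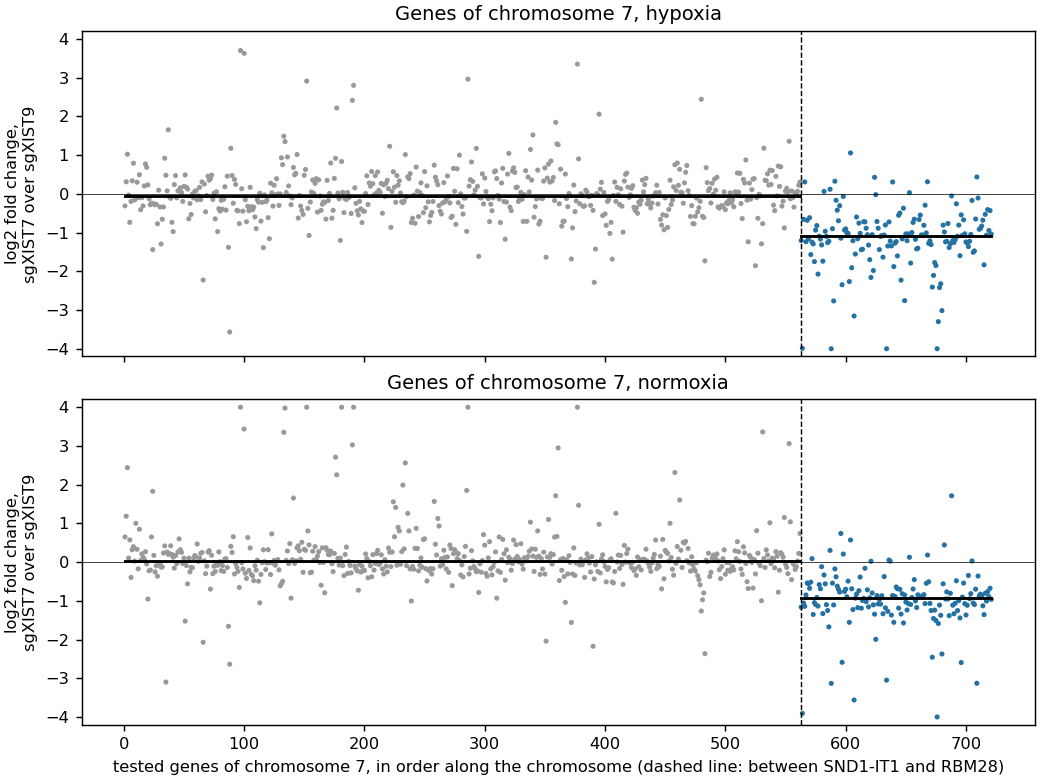
Log2 fold change of sgXIST7 over sgXIST9 for each of the tested genes of chromosome 7 in their order along the chromosome, in hypoxia (upper panel) and in normoxia (lower panel). The dashed line separates SND1-IT1 from RBM28, the black bars are medians (-0.04 and -1.08 in hypoxia, 0.03 and -0.93 in normoxia), and points beyond 4 in size are drawn at the edge.

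The lower level was on the side of sgXIST7. Against the mean of the control libraries in hypoxia, the median log2 ratio over the 159 genes was -0.92, -0.93 and -0.94 in the 3 sgXIST7 libraries and -0.03, 0.01 and -0.02 in the 3 sgXIST9 libraries. Replicate 3 did not stand apart here, and the clones did not overlap. In normoxia the medians were -0.80, -0.72 and -0.80 in sgXIST7 and -0.01, 0.06 and 0.00 in sgXIST9. The difference between the clones changed by a median of -0.15 from normoxia to hypoxia, and none of the 159 genes was called for that change. In bulk RNA, fewer cells with a given level and less RNA per cell cannot be told apart, and DNA was not analysed here.

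Genes of many functions lay in this stretch. EZH2, the methyltransferase of Polycomb repressive complex 2, was at 38.3, 45.9 and 56.6 CPM in sgXIST7 and 86.1, 86.2 and 153 CPM in sgXIST9, while sgCtl was at 156, 213 and 179 CPM. Its log2 fold change was -1.21 ± 0.19 (SE, edgeR adjusted p = 0.00036), and it lost its call when sgXIST9 replicate 3 was left out and in the fit of 6 libraries. EZH2 was the only one of 29 DNA methylation and Polycomb genes that was called, or 3.45% against 4.46% of all genes.
BRAF, a kinase of the ERK cascade, had 24.1, 31.0 and 26.5 CPM in sgXIST7 and 56.2, 53.4 and 62.7 CPM in sgXIST9. BRAF passed the test (edgeR adjusted p = 0.00019) but was not called without replicate 3 or without sgXIST7 replicate 1. NUP205, a nuclear pore scaffold protein, had 44.9, 43.4 and 46.1 CPM in sgXIST7 and 101, 96.7 and 102 CPM in sgXIST9 (log2 fold change -1.16, edgeR adjusted p = 7.6e-08). Neither gene overlapped between the clones, and both log2 fold changes lay between the quartiles of the stretch, -1.39 and -0.72.

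Some genes of the stretch were lower by more than the median. CHCHD3, a subunit of the mitochondrial contact site complex, was lower by 5.09-fold (4.59, 4.53 and 3.54 CPM in sgXIST7 and 22.0, 23.9 and 19.3 CPM in sgXIST9, edgeR adjusted p = 7.5e-09). MEST, an imprinted gene, was at or under 3 counts in every sgXIST7 library and at 2.74, 2.27 and 3.79 CPM in sgXIST9, at least 16.3-fold higher there (edgeR adjusted p = 1.1e-05). KCNH2, a cardiac potassium channel gene, had a log2 fold change of -2.42 (edgeR adjusted p = 5.4e-06), and here sgXIST9 with 20.4 CPM was above both sgXIST7 with 3.80 CPM and sgCtl with 2.40 CPM. CALD1, the actin-binding protein caldesmon, was the exception that was called higher in sgXIST7, by 1.06 on the log2 scale (edgeR adjusted p = 0.0031). It lost its call when replicate 2 or 3 of sgXIST7 or replicate 1 or 2 of sgXIST9 was left out. The fit of 6 libraries did not call it either.

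Along the rest of the genome the clones were closer. Of 256 bins of 10 Mb with at least 20 tested genes, 237 had a median log2 fold change within 0.2 of 0, and 5 were beyond 0.4. Of these, 4 were the bins at the end of chromosome 7, with medians of -0.68, -1.05, -1.07 and -1.08. The other was the bin from 30 to 40 Mb of chromosome 13, with a median of 0.58 over 28 genes, 26 of them positive, and a median of 0.43 in normoxia. SPART, a spastic paraplegia protein of lipid droplets, led this bin with 89.6, 83.8 and 86.9 CPM in sgXIST7 and 23.3, 26.7 and 21.8 CPM in sgXIST9 (log2 fold change 1.86, edgeR adjusted p = 1.9e-06). STARD13 followed with a log2 fold change of 1.64 (edgeR adjusted p = 1.7e-05). Without replicate 3 the 5 medians were -0.82, -1.01, -1.09, -1.08 and 0.63.

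**Figure D2:**
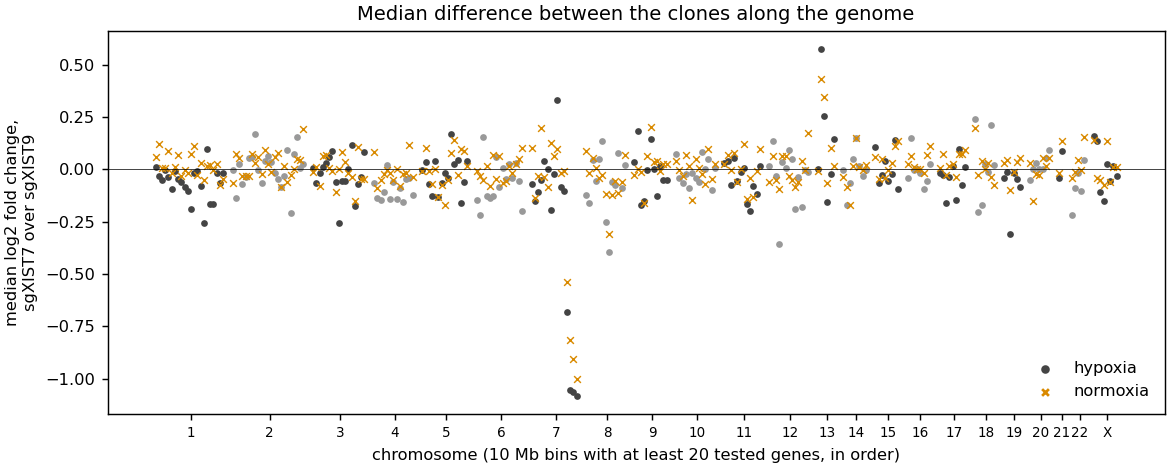
Median log2 fold change of sgXIST7 over sgXIST9 in 10 Mb bins with at least 20 tested genes, in order along chromosomes 1 to 22 and X, with dots for hypoxia and crosses for normoxia. In hypoxia 237 of 256 bins lie within 0.2 of 0, and the 4 bins at the end of chromosome 7 reach -0.68 to -1.08.

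The largest differences at single genes fell in part into short runs of neighbouring genes. In the run on the long arm of chromosome 3 (chr3:190514085-191398659, hg38), the 5 neighbouring genes IL1RAP, OSTN, OSTN-AS1, UTS2B and CCDC50 were all lower in sgXIST7, and all 5 were also called in normoxia. OSTN, which encodes the muscle and bone peptide osteocrin, was at 347, 255 and 493 CPM in sgXIST9, at 0.43, 0.544 and 0.95 CPM in sgXIST7 and at 0.188, 0.248 and 0.177 CPM in sgCtl. UTS2B, the gene of a urotensin-related peptide, was at 73.1, 97.7 and 64.1 CPM in sgXIST9 and at 0.0478, 0.0906 and 0.345 CPM in sgXIST7. CCDC50, an adaptor protein of EGF receptor signalling, was at 653, 656 and 821 CPM in sgXIST9 against 35.4, 36.4 and 30.8 CPM in sgXIST7.
In this run sgXIST9 stood apart from both other lines, and CCDC50 was at 36.1, 37.5 and 36.4 CPM in sgCtl. The log2 fold changes were -9.25 for OSTN, -9.16 for UTS2B and -4.37 for CCDC50, with edgeR adjusted p-values of 9.7e-13, 5.1e-11 and 4.5e-13. UTS2B and CCDC50 overlap where they meet, on opposite strands, and OSTN-AS1 lies within OSTN, so that some reads may be shared between them.

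On chromosome 18 the opposite was seen. In a run at chr18:58044226-58754477 the 4 neighbours NEDD4L, ALPK2, LOC101927322 and MALT1 were all higher in sgXIST7, and all 4 were called in normoxia as well. ALPK2, an alpha-type kinase, had 39.7, 62.4 and 86.2 CPM in sgXIST7 and 0 counts in all 3 sgXIST9 libraries, at least 408-fold higher (edgeR adjusted p = 1.3e-08). MALT1, the paracaspase of NF-kB signalling, had 377, 420 and 472 CPM in sgXIST7, 32.2, 28.6 and 42.2 CPM in sgXIST9 and 37.4, 40.0 and 35.0 CPM in sgCtl. NEDD4L, a ubiquitin ligase, differed less, with a log2 fold change of 1.43 against 3.63 for MALT1. On the same chromosome, DLGAP1, a postsynaptic scaffold gene, had a log2 fold change of 4.04 (edgeR adjusted p = 2.7e-07). DLGAP1-AS3, which lies inside it, was at or under 3 counts in each sgXIST9 library and at least 124.6-fold higher in sgXIST7 (edgeR adjusted p = 1.4e-07).
Outside the end of chromosome 7, further runs of at least 3 neighbours called lower in sgXIST7 held SLITRK3, LINC01322 and BCHE on chromosome 3, ANO3, ANO3-AS1 and MUC15 on chromosome 11, and HOXB5 to HOXB9 on chromosome 17. Most of these genes were also called in normoxia (3 of 3, 3 of 3 and 4 of 5). Of the 4 genes from FLJ32255 to LOC153684 on chromosome 5, 0 were called in normoxia, and of the 3 from TUBA3FP to BCRP2 on chromosome 22, 1 was. SLITRK3, a synaptic adhesion gene, was at 26.3, 28.2 and 24.95 CPM in sgXIST7 and at 123, 139 and 149 CPM in sgXIST9, with 0 counts in each sgCtl library. Both clones thus had SLITRK3, at unequal levels, where the control clone had none detected.

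Among genes higher in sgXIST7, several encode receptors or adhesion proteins. TGFBR2, the type II receptor of TGF-beta, was at 12.3, 13.6 and 9.76 CPM in sgXIST7 and no higher than 3 counts in each sgXIST9 library, at least 77.3-fold higher (edgeR adjusted p = 5.9e-08). NRP2, a co-receptor of semaphorins and VEGF, was at 120, 120 and 59.7 CPM in sgXIST7 and 2.37, 2.45 and 1.14 CPM in sgXIST9 (log2 fold change 5.62, edgeR adjusted p = 1.3e-08). CDH10, a classical cadherin, was at 104, 107 and 175 CPM against 1.14, 0.953 and 2.15 CPM (log2 fold change 6.55). For NRP2 and CDH10, sgCtl was far below sgXIST7 too, with means of 2.15 and 0.226 CPM.
NREP, a neuronal regeneration-related protein, showed another order. It was at 132, 132 and 119 CPM in sgXIST7, 84.6, 67.6 and 114 CPM in sgCtl and 2.37, 2.13 and 2.59 CPM in sgXIST9, so that here sgXIST9 was the line apart. RUNX1, a transcription factor of blood and epithelial cells, was at 10.9, 26.0 and 26.9 CPM in sgXIST7, 0.593, 0.454 and 0.631 CPM in sgXIST9 and 4.19, 4.37 and 4.25 CPM in sgCtl, with the control between the clones. The retinal polarity gene CRB1 and the LIM homeobox gene LHX9, a gonad and limb factor, had log2 fold changes of 5.79 and 5.11 (edgeR adjusted p = 2.5e-11 and 9.4e-10).

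The genes lower in sgXIST7 with the largest changes had varied roles. GRIK2, a kainate receptor subunit, was at 65.4, 57.6 and 86.2 CPM in sgXIST9 and 0.334, 0.0453 and 0.0863 CPM in sgXIST7 (log2 fold change -8.67, edgeR adjusted p = 2.4e-10). CHRM3, a muscarinic acetylcholine receptor, had a log2 fold change of -5.36 (edgeR adjusted p = 1.6e-09). SCG2, a granin of secretory vesicles, was at 705, 593 and 655 CPM in sgXIST9 and 49.9, 40.0 and 32.3 CPM in sgXIST7, both above sgCtl with 1.0, 1.39 and 1.595 CPM.
CYP26A1, which degrades retinoic acid, and RDH10, which makes its precursor retinal, had log2 fold changes of -4.47 and -4.22 (edgeR adjusted p = 3.3e-08 and 2.7e-07). NR2F2, an orphan nuclear receptor of the COUP family, was at 9.57, 13.98 and 5.74 CPM in sgXIST9 and at or under 3 counts in each sgXIST7 library, while sgCtl had 7.13, 10.9 and 5.49 CPM. NR2F2 and DUSP6 were thus lower in sgXIST7 than in both other lines. DUSP6, the phosphatase that limits ERK, was at 1.15, 1.22 and 0.95 CPM in sgXIST7, 27.2, 28.3 and 24.5 CPM in sgXIST9 and 40.3, 28.8 and 25.8 CPM in sgCtl (log2 fold change -4.56, edgeR adjusted p = 7.2e-10).

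**Figure D3:**
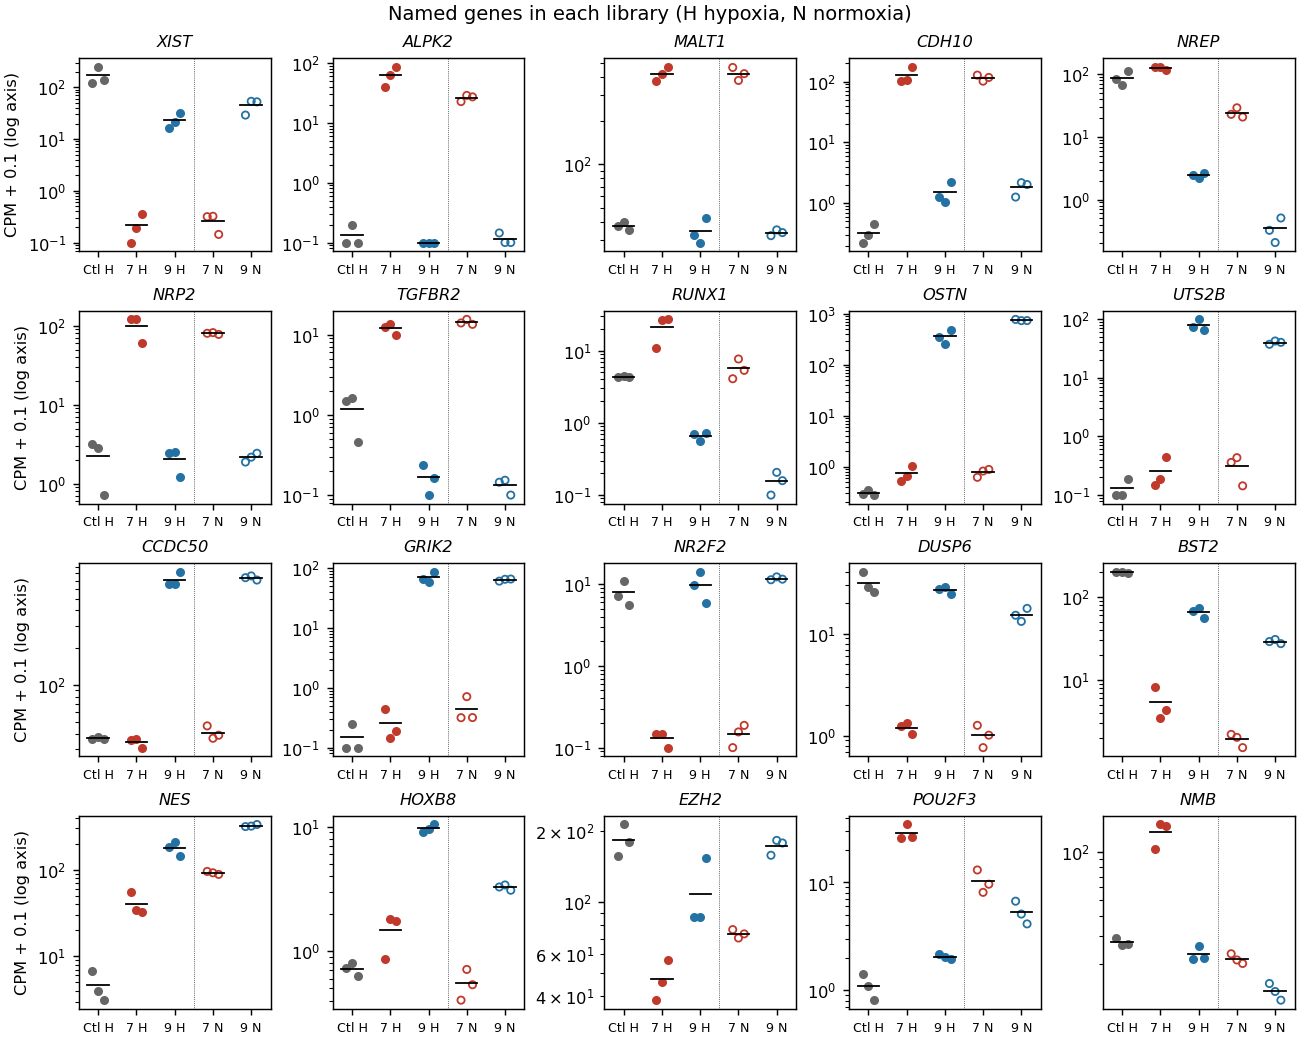
CPM plus 0.1 on a log axis for 20 named genes in each library of sgCtl, sgXIST7 and sgXIST9 in hypoxia (filled, H) and of both clones in normoxia (open, N), with a bar at the mean of 3 libraries. OSTN, UTS2B and CCDC50 are high in sgXIST9, ALPK2 and MALT1 are high in sgXIST7, and each of these has the same direction in normoxia.

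Taking the control line as a reference for single genes, sgCtl lay between the clones in 153 of the 308 genes higher in sgXIST7, below both in 110 and above both in 45. Of the 358 genes lower in sgXIST7, it lay between in 166, below both in 107 and above both in 85. These counts are of group means in hypoxia and were not tested.

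Genes high in CPM in both clones also differed. COL12A1, a collagen of fibril surfaces, was at 2432, 3473 and 4623 CPM in sgXIST7 and at 1108, 884 and 1778 CPM in sgXIST9, whereas sgCtl had 36.3, 47.1 and 40.6 CPM (log2 fold change 1.48, edgeR adjusted p = 0.00027). It was not called in the fit of 6 libraries. TIMP1, an inhibitor of matrix metalloproteinases, was at 2722, 3503 and 3158 CPM against 1143, 1226 and 1210 CPM (log2 fold change 1.39, edgeR adjusted p = 2.6e-06). RPS4X is an X-linked ribosomal protein gene with many processed copies in the genome. It was at 473, 468 and 477 CPM in sgXIST7 and 975, 885 and 1056 CPM in sgXIST9. It lost its call without replicate 3 of both clones, with a log2 fold change of -0.98, and without sgXIST9 replicate 3 alone.
The signal recognition particle RNA RN7SL3, with a log2 fold change of -1.16, shares reads with near-identical copies and is uncertain.

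Mesenchymal genes were called higher in sgXIST7 more often than lower. Of 23 mesenchymal genes tested, 6 were higher and 2 lower in sgXIST7, or 34.8% against 4.46% of all genes, with a median log2 fold change of 0.34 against -0.03 for all genes. PRRX1, a homeobox factor of mesenchyme, was at 1.39, 2.40 and 2.68 CPM in sgXIST7 and at or under 3 counts in each sgXIST9 library, at least 13.99-fold higher (edgeR adjusted p = 1.9e-05). ZEB2, a repressor of E-cadherin, was at 3.63, 5.89 and 7.17 CPM against 0.319, 0.136 and 0.316 CPM (log2 fold change 4.41), but sgCtl was above both clones with 51.6, 51.8 and 83.8 CPM.
TWIST1, a factor of epithelial-mesenchymal transition, had the same order of lines, with means of 2.40 CPM in sgXIST7, 0.190 in sgXIST9 and 7.08 in sgCtl. TAGLN, an actin-binding protein of contractile cells, was at 151, 203 and 335 CPM in sgXIST7 and 16.3, 21.3 and 59.1 CPM in sgXIST9 (log2 fold change 2.84, edgeR adjusted p = 0.00025). TAGLN was not called in the fit of 6 libraries. SNAI1 and FBN1 were the 2 members lower in sgXIST7. Neither kept its call without replicate 3, in the fit of 6 libraries, or with some single libraries left out. Vimentin (VIM) had a log2 fold change of 0.37 and did not pass the test (edgeR adjusted p = 0.13).

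Of 28 collagen chain genes, 4 were called higher and 0 lower in sgXIST7, or 14.3% against 4.46% of all genes, yet their median was -0.20 and 16 were negative. In normoxia their median was 0.77, with 6 called higher and 0 lower, and 0 were called for the change between conditions. COL1A2, a chain of type I collagen, was at 125, 136 and 306 CPM in sgXIST7 and 31.6, 34.9 and 69.9 CPM in sgXIST9 (log2 fold change 2.06, edgeR adjusted p = 0.00081). COL1A2 and COL12A1 lost their calls in the fit of 6 libraries. COL14A1, which binds fibrils, was at 193, 187 and 169 CPM against 72.5, 71.6 and 69.7 CPM (log2 fold change 1.36, edgeR adjusted p = 8.3e-05). COL5A1, a chain of type V collagen, had a log2 fold change of 1.83. The summed level of 6 fibroblast markers, which include COL1A2 itself, was 153 to 318 CPM in sgXIST7, 64.3 to 87.1 in sgXIST9 and 14.5 to 35.1 in sgCtl. COL1A2 made up most of this difference, since COL1A1 was at 2.05, 2.49 and 1.64 CPM in sgXIST7 and 5.01, 7.08 and 3.53 CPM in sgXIST9. THY1 was at 30.5, 14.3 and 9.24 CPM against 27.3, 34.2 and 13.4 CPM, and LUM was at or under 3 counts throughout.
Among 24 integrins and laminins, 3 were higher and 1 lower in sgXIST7, or 16.7% against 4.46% of all genes, with a median of 0.13. LAMA1, a laminin chain among those called higher, lost its call without replicate 3 and in the fit of 6 libraries. ITGA2, a collagen receptor subunit, was at 98.9, 84.3 and 55.0 CPM in sgXIST7 and 10.6, 11.1 and 5.36 CPM in sgXIST9 (log2 fold change 3.13, edgeR adjusted p = 9.6e-08). ITGA1, another collagen receptor subunit, had a log2 fold change of 2.97 (edgeR adjusted p = 3.6e-05).

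Of 14 epithelial genes tested, 9 had a positive log2 fold change, with a median of 0.37, and 14.3% were called against 4.46% of all genes. By library the median of the list, relative to the mean of the 6, was 0.01, 0.31 and 0.06 in sgXIST7 and -0.17, -0.19 and 0.01 in sgXIST9. The called genes went in opposite directions. ELF3, an epithelial ETS factor, was higher in sgXIST7 (3.77, 9.65 and 9.24 CPM against 0.365, 1.18 and 0.442 CPM, edgeR adjusted p = 0.00061) and SPINT2 was lower. SPINT2 lost its call without replicate 3. EPCAM, the epithelial cell adhesion molecule, was at 228 to 234 CPM in sgXIST7 and 218 to 251 CPM in sgXIST9, and CDH1 was not above 3 counts in any of the 6 libraries.

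Stem cell markers differed at NES and LIN28B, which were lower in sgXIST7, out of 11 tested (18.2% against 4.46% of all genes), with a median of 0.03 for the list. NES, the intermediate filament nestin, was at 54.9, 33.9 and 32.6 CPM in sgXIST7, 182, 212 and 145 CPM in sgXIST9 and 6.63, 3.87 and 3.01 CPM in sgCtl. The 3 lines did not overlap, with both knockdown clones above the control and sgXIST9 4.43-fold above sgXIST7 (log2 fold change -2.15 ± 0.28, SE, edgeR adjusted p = 4.3e-05). LIN28B, which blocks maturation of let-7 microRNAs, had a log2 fold change of -1.51 (edgeR adjusted p = 0.00059) and lost its call in the fit of 6 libraries. CD24 and ALDH1A3, with log2 fold changes of 0.13 and 0.03, did not pass the test (edgeR adjusted p = 0.9 and 0.97).

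HOX genes split by cluster. Of 26 HOX genes tested, the 6 called lower in sgXIST7 were all of the HOXB cluster on chromosome 17 and the 3 called higher were all of the HOXD cluster on chromosome 2, in all 34.6% against 4.46% of all genes. HOXB8 was at 0.764, 1.72 and 1.64 CPM in sgXIST7 and 8.93, 9.44 and 10.3 CPM in sgXIST9 (log2 fold change -2.81, edgeR adjusted p = 8.4e-06). HOXB6 was at 4.68, 6.25 and 5.18 CPM against 28.3, 30.2 and 29.9 CPM (log2 fold change -2.45). HOXB genes lie side by side and overlap in part, so their counts are not independent. HOXD1, at the other end of its cluster from HOXD10 and HOXD11, had a log2 fold change of 2.52 (edgeR adjusted p = 0.00058), and HOXD11 lost its call without replicate 3. HOXD10 and HOXD11 both lost their calls in the fit of 6 libraries and when replicate 2 or 3 of sgXIST7 or replicate 1 or 2 of sgXIST9 was left out.

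Of the genes induced by hypoxia, most had a higher mean in sgXIST7, but few passed the test. Of 30 listed, 27 had a positive log2 fold change, with a median of 0.73 against -0.03 for all genes, but LOX was the only one called, which is 3.33% of the list against 4.46% of all genes. In normoxia the median was 0.35 against 0.01 for all genes, with 2 called higher, and 0 were called for the change between conditions. By library the median of the list, relative to the mean of the 6, was 0.02, 0.39 and 0.67 in sgXIST7 and -0.46, -0.55 and 0.05 in sgXIST9, so that the clones overlapped. LOX, the collagen cross-linking enzyme, was at 5.88, 9.29 and 11.8 CPM in sgXIST7 and 2.78, 1.95 and 2.90 CPM in sgXIST9 (log2 fold change 1.82, edgeR adjusted p = 0.003). LOX lost its call without replicate 3, in the fit of 6 libraries, and when replicate 2 or 3 of sgXIST7 or replicate 1 or 2 of sgXIST9 was left out.
HK2, a hexokinase of glycolysis, and SLC2A1, the glucose transporter GLUT1, passed the adjusted p (edgeR, 0.001 and 0.0021) with log2 fold changes of 0.97 and 0.92, under the fold limit. VEGFA, the angiogenic growth factor, was at 209, 316 and 378 CPM in sgXIST7 and 133, 102 and 239 CPM in sgXIST9 (edgeR adjusted p = 0.021), and CA9, a carbonic anhydrase, had a log2 fold change of -0.27 (edgeR adjusted p = 0.71). Of the 30 genes in this list, 7 were called with DESeq2, 12 without sgXIST9 replicate 3, 4 without both replicates 3, and 0 in the fit of 6 libraries. Calls over all genes also rose, to 403 higher and 403 lower with DESeq2. Without sgXIST9 replicate 3 they were 490 higher and 483 lower. In both of these settings the share of the list called was above that of all genes, unlike the 3.33% against 4.46% above.

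Some interferon-stimulated genes were lower in sgXIST7. Of 27 tested, 6 were called lower and 0 higher, or 22.2% against 4.46% of all genes, with a median log2 fold change of -0.79 in hypoxia and -0.02 in normoxia. BST2, the virion tether, was at 8.12, 3.35 and 4.32 CPM in sgXIST7, 68.0, 73.3 and 55.6 CPM in sgXIST9 and 198, 199 and 192 CPM in sgCtl (log2 fold change -3.62, edgeR adjusted p = 1.2e-08). IFITM2, which blocks viral entry, was at 8.27, 4.67 and 4.23 CPM against 23.7, 23.1 and 24.1 CPM (log2 fold change -2.03, edgeR adjusted p = 2.3e-05). These 2 had like differences in normoxia, with log2 fold changes of -3.98 and -1.99.
RSAD2, IFIT3, XAF1 and CMPK2 were the others, with log2 fold changes of -1.26 to -1.91 in hypoxia and from -0.43 to 0.09 in normoxia. None of the 27 was called for the change between conditions. By library, the list's median relative to the mean of the 6 was -0.08, -0.21 and -1.0 in sgXIST7 and 0.42, 0.76 and -0.07 in sgXIST9, so that the clones nearly met. The number called lower was 3 without sgXIST7 replicate 3 or without sgXIST9 replicate 2, and 2 in the fit of 6 libraries, in which IFIT3, RSAD2 and XAF1 were among those lost. RSAD2 also lost its call without replicate 3 of both clones.

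Immediate early genes, the first wave of transcription after growth or stress signals, were called higher at JUN, FOS and FOSL2 and lower at DUSP6, out of 30 (13.3% against 4.46% of all genes). FOS was at 29.9, 43.1 and 41.2 CPM in sgXIST7 and 13.7, 14.8 and 13.4 CPM in sgXIST9 (log2 fold change 1.44, edgeR adjusted p = 3.6e-05). FOSL2 was at 199, 242 and 268 CPM against 83.9, 86.4 and 116 CPM (log2 fold change 1.31, edgeR adjusted p = 0.00023). The median of the list was 0.46 in hypoxia and -0.42 in normoxia. JUN, with a log2 fold change of 1.77, lost its call when sgXIST9 replicate 1 or 2 was left out and in the fit of 6 libraries.

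For large gene families the share called is given beside 4.46% of all genes, and no difference between families was tested. Of 213 solute carriers, 6 were higher and 9 lower in sgXIST7, or 7.04%. Of 81 respiratory chain and ATP synthase genes, 2 were lower in sgXIST7 (2.47%), ATP5MC1 and NDUFB2, of which NDUFB2 lies at the end of chromosome 7. The median of these 81 genes was -0.13. Of 82 cytosolic ribosomal protein genes, RPS4X was the one called (1.22%), with a median of 0.05 for the list. Of 46 replication-dependent histone genes 42 were positive, but H1-2 was the only one called (2.17%). The median of the histone list, 0.39, became 0.13 without replicate 3. Of 198 zinc finger genes on chromosome 19, 4 were called lower (2.02%), and of 40 clustered protocadherins 0 were called. The medians were -0.19 for the zinc finger genes and -0.32 for the protocadherins.

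**Figure D4:**
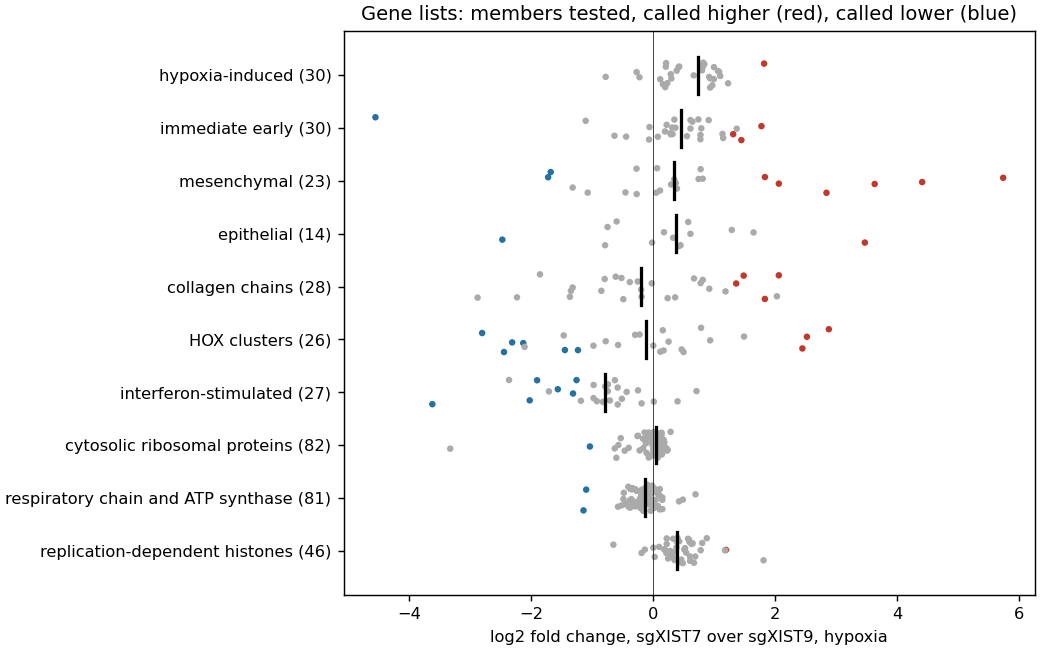
Log2 fold change of sgXIST7 over sgXIST9 in hypoxia for the tested members of 10 gene lists, with the number tested in brackets, a black bar at each median, red for genes called higher and blue for genes called lower. The hypoxia-induced list lies mostly to the right of 0 with LOX alone in red, and the interferon-stimulated list mostly to the left with 6 genes in blue.

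X-linked genes were not set apart as a whole. On chromosome X, 13 genes were higher and 17 lower in sgXIST7 of 499 tested, or 6.01% called against 4.41% on the autosomes, with a median log2 fold change of -0.01. All 7 tested genes of the X-inactivation centre had negative values, as did 7884 of all 14938 genes tested. Of the 7, XIST, the target of both guides, and NAP1L2, a nucleosome assembly gene next to the centre, were called. This was 28.6% against 4.46% of all genes. NAP1L2 lost its call in the fit of 6 libraries and without sgXIST7 replicate 2. JPX, an activator of XIST, with a log2 fold change of -0.99, and FTX with -0.02 were not beyond the fold limit. Without that limit, 3 of the 7 passed the adjusted p of edgeR, as did 629 higher and 630 lower genes among all tested.

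To ask whether the differences belonged to hypoxia, the same contrast was taken in normoxia, in other libraries of the same clones. There 508 genes were called, 3.40% of those tested. Of the 308 genes higher in hypoxia, 149 were also called higher in normoxia, and 284 had the same sign. Of the 358 lower genes, 137 were called lower in normoxia, and 331 had the same sign. The shared genes were 48.4% of the higher and 38.3% of the lower calls in hypoxia, and 47.8% and 69.9% of those in normoxia, and 0 genes were called in opposite directions. Across genes Pearson's r of the log2 fold changes was 0.61, as a description, since genes are not independent replicates and both values rest on the same clones.

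**Figure D5:**
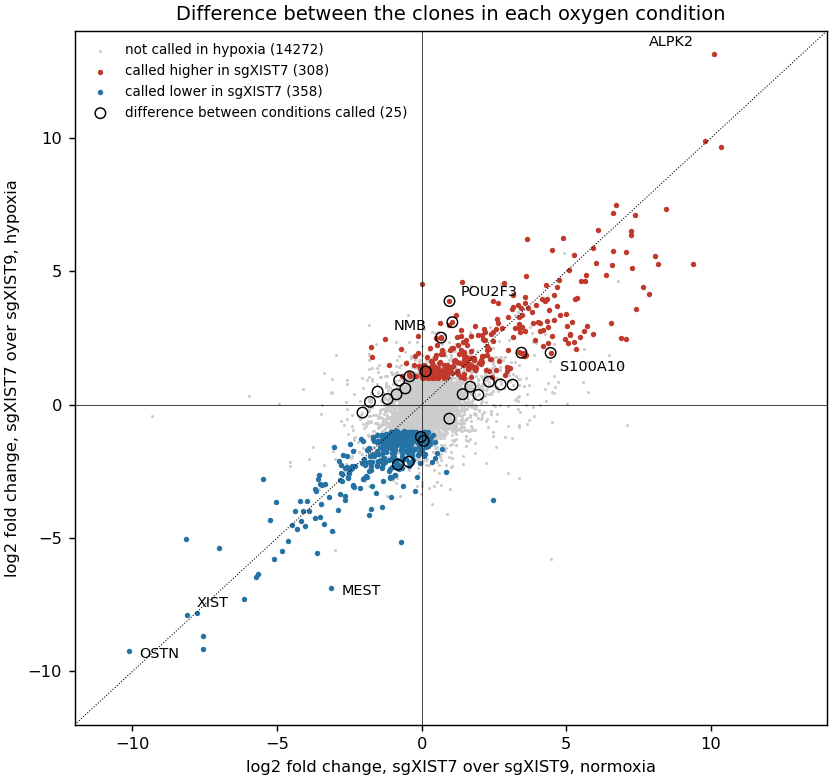
Log2 fold change of sgXIST7 over sgXIST9 for each tested gene in normoxia (x axis) and in hypoxia (y axis), with genes called in hypoxia in red (308 higher) and blue (358 lower). Circles mark the 25 genes whose difference between the clones was itself called as unlike between the conditions, and the dotted line marks equal values.

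The change of the difference itself was called at 25 genes, 0.167% of those tested, 12 with a positive and 13 with a negative change of the log2 fold change. At an unadjusted p under 0.05 there were 2401 genes, and DESeq2 called 78 and 77. POU2F3, a POU factor of tuft cells, was at 25.5, 34.4 and 26.5 CPM in sgXIST7 and 2.05, 1.95 and 1.83 CPM in sgXIST9 in hypoxia, while the means in normoxia were 10.2 and 5.21 CPM. The log2 difference was thus 3.88 in hypoxia and 0.96 in normoxia, a change of 2.92 (edgeR adjusted p = 0.00096). NMB, the peptide neuromedin B, was at 104, 147 and 144 CPM in sgXIST7 and 21.4, 25.8 and 21.8 CPM in sgXIST9, with normoxia means of 21.5 and 13.5 CPM (change 1.84, edgeR adjusted p = 0.0003). For both genes, every sgXIST7 library in hypoxia stood above every sgXIST9 and sgCtl library.
TSPAN1, a tetraspanin of epithelial cells, had a change of 2.03 (edgeR adjusted p = 0.0056). In the other direction, S100A10, an annexin partner, was at 190, 185 and 161 CPM in sgXIST7 and 47.7, 34.9 and 57.1 CPM in sgXIST9 in hypoxia. Its means in normoxia were 35.1 and 1.59 CPM, so the ratio between the clones was smaller in hypoxia (change -2.51 on the log2 scale, edgeR adjusted p = 0.0037). In CPM the gap was larger in hypoxia. FSCN1, the actin bundler fascin, did not pass the test between the clones in hypoxia (log2 fold change 0.49, edgeR adjusted p = 0.08) but did change from normoxia, where it had a log2 fold change of -1.52.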

How the data were processed

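The authors deposited raw counts per gene for 18 libraries. Trimmomatic had trimmed the reads, HISAT2 had placed them on hg38, and featureCounts had assigned them to genes. The versions of these tools are not given in the sources used here. In the 28279 lines, 2 broken lines without counts were left out. Of the gene symbols, 26993 were found in RefSeq GRCh38.p14, 93% with a start within 1 kb. The spacers were searched in hg38 on both strands beside NGG. Genes were kept by filterByExpr (minimum count 10, total 15), libraries scaled by TMM, and edgeR 4.0.16 quasi-likelihood fits over 6 groups tested sgXIST7 against sgXIST9 in hypoxia, in normoxia and the change between them, with Benjamini-Hochberg adjustment, calling genes at an adjusted p under 0.01 and a log2 fold change beyond 1 (prior count 0.125). The fit was tested on simulated data. CPM are TMM-scaled, and SE is of the log2 fold change. Bounds use 3 counts per library and cover counting error only, whereas SE includes the spread between libraries. Alternatives were DESeq2 1.42.0, other scalings, filters, samples and thresholds. Members and lists were chosen with earlier results of these data known. Named genes were XIST, the 12 most changed and 6 most abundant called genes in each direction without overlap and with at least 100 counts on average, up to 5 called genes per list or outlying bin, some fixed markers, genes near guide sites and the 6 largest changes between conditions in each direction. Genes named for their position beside others, SND1, RBM28, BRAF, NUP205, CALD1 and the run members among them, were chosen after their values were seen, as were JPX, FTX, HK2 and SLC2A1.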

Additional observations from a re-analysis of the deposited data

Results flagged for a closer look

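The difference between the clones changed between normoxia and hypoxia at 12 named genes, by the test of that change itself in edgeR (adjusted p under 0.01 and a log2 change beyond 1 in size). The change was positive at POU2F3 (2.92), TSPAN1 (2.03), FSCN1 (2.01), SLC6A11 (1.90), NMB (1.84) and MLLT3 (1.75). It was negative at S100A10 (-2.51), SFRP1 (-2.39), LOC153684 (-1.70), SEMA3F (-1.59), IGFBP2 (-1.5) and ASAP3 (-1.48). At FSCN1, SLC6A11 and MLLT3 the clones were apart in normoxia, with log2 fold changes of -1.52, -1.79 and -2.05, and did not pass the test in hypoxia. SFRP1, SEMA3F and ASAP3 also did not pass in hypoxia.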

How the results depend on the processing

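Fitting the 6 libraries alone gave 167 genes higher and 156 lower, and a fit of both clones in both conditions without sgCtl left 5 genes with a negative change between conditions. Without a limit on the fold change, 629 genes were higher and 630 lower. At an adjusted p under 0.05, 547 genes were lower, and the change between conditions was called positive at 54 genes and negative at 76. Leaving out one library at a time gave 214 to 490 higher genes, the most without sgXIST9 replicate 3, and 218 to 483 lower genes, the fewest without sgXIST7 replicate 2. The change between conditions was the least stable result, with 5 to 66 positive and 1 to 62 negative genes when one library was left out. It was 78 and 77 with DESeq2 and 22 positive without a filter on low counts. It was 28 and 22 without replicate 3 of both clones in hypoxia, and 124 and 165 without it in all 3 lines, a choice made after seeing the data. With the replicate block, 439 genes were higher and 527 lower in hypoxia, and the change was called positive at 90 and negative at 125 genes. In hypoxia, deviations from the group mean of same-numbered libraries correlated at 0.294, -0.068 and 0.492 for replicates 1, 2 and 3. For unlike numbers they ranged from -0.566 (sgXIST7 replicate 1, sgXIST9 replicate 3) to 0.474 (sgXIST7 replicate 1, sgXIST9 replicate 2). The replicate 3 libraries thus shared some deviation, but the numbers did not pair all samples. With the block in the fit of 6 libraries, added after seeing the data, 334 genes were higher and 311 lower. XIST kept its call under all alternatives run. Of 146 named genes called, 85 were past the thresholds under all alternatives other than those added after seeing the data, 143 in DESeq2, 91 in the fit of 6 libraries and 99 with each hypoxia library left out, and 0 changed sign. Signs changed at 6 named genes that were not called. With one library or replicate 3 left out, log2 fold changes were -0.56 to 0.44 for CD24, -0.25 to 0.39 for ALDH1A3, -0.07 to 0.03 for EPCAM, -0.64 to 0.17 for CA9, -0.00 to 0.23 for SLC6A11 and -0.15 to 0.02 for COPS5. With replicate 3 left out in all 3 lines they were -0.01 for CD24, 0.03 for EPCAM and 0.02 for COPS5, ALDH1A3 was at -0.02 with upper-quartile scaling, and EPCAM at 0.02 with DESeq2 and RLE scaling. The cause of these shifts was not tested.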
